A study of Mus musculus with 12 samples.

Results

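The expression of 10 genes that mark microglia (Cx3cr1, Csf1r, C1qa, C1qb, C1qc, P2ry12, Tmem119, Aif1, Trem2 and Tyrobp) was followed in mouse neocortex at 2 stages and in both Chd8 genotypes. The genes were taken by symbol from the 46603 genes of the count tables. All 10 were found, and all 10 passed the filter on low counts in every comparison. Neocortices were microdissected from C57Bl/6J mice at embryonic day 12.5 (E12.5, both hemispheres) and at postnatal day 5 (P5, a single hemisphere). At each stage, 3 libraries came from Chd8+/+ and 3 from Chd8+/- animals, giving 12 RNA-seq libraries. Chd8+/- animals carry 1 null allele of Chd8, a chromatin remodeler, made by deleting loxP-flanked exon 3 with a ubiquitous β-actinCre whose transgene was then bred out. The deletion is therefore present in every cell, microglia included and is absent from the Chd8+/+ animals. The ES cells injected to make the line came from a pair of clones. The samples are whole tissue, in which fewer microglia and less RNA per microglial cell cannot be told apart. The labels do not say whether the libraries of a group came from separate litters, so p-values measure only the spread between these libraries.

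Microglia are the resident macrophages of the brain. They arise in the yolk sac, enter the embryonic forebrain before birth and multiply there after it, and they survive on signals through the receptor Csf1r. They carry receptors for neuronal and metabolic cues (Cx3cr1 for fractalkine, P2ry12 for ADP), they are the main source of complement C1q in the brain, and they sense lipids through Trem2, which signals through the adaptor Tyrobp. P2ry12 and Tmem119 are commonly used to tell microglia from other macrophages, whereas C1q genes, Csf1r, Cx3cr1, Aif1 and Tyrobp are also expressed by macrophages at the borders of the brain.

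The 3 C1q genes lie side by side on chromosome 4 (GRCm38), all on the minus strand, with C1qb at chr4:136880129-136886187, C1qc at chr4:136889804-136893065 and C1qa at chr4:136895917-136898803. The other members lie apart: Cx3cr1 at chr9:119901616-120068283, P2ry12 at chr3:59216272-59262871, Tmem119 at chr5:113793729-113800516, Tyrobp at chr7:30413788-30417577, and Aif1 (chr17:35170991-35176068) and Trem2 (chr17:48346401-48354147) far from each other on the same chromosome. Exons of Csf1r overlap exons of Hmgxb3, and exons of P2ry12 overlap exons of Med12l, each on the opposite strand. Strand was not used in the counting recorded for P5, so the counts of these pairs are uncertain where they overlap.

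Csf1r was left out of the reading of promoters, and no RefSeq start site was matched for C1qa, Tmem119 or Tyrobp. RefSeq start sites on GRCm38.p6 were used for the other 6 of the 10 members. The 250 bases before them were read for AGGAAGT on either strand (ACTTCCT on the other), the core bound by the myeloid factor PU.1 and by other ETS factors. A match was found for 3 of the 6 (C1qb, C1qc and P2ry12) and none for Cx3cr1, Aif1 or Trem2, and 7.69% of 32851 promoters in the same table held a match in this window. The matched windows are shown because these genes were among the members that rose between the stages. A match describes the letters only and binding was not measured. The RefSeq start of C1qc lies inside the Ensembl gene given above, so that its window overlaps that gene. Capitals mark the match, and each line reads 5′ to 3′ on the gene's own strand.
C1qb, minus strand, chr4:136886201-136886450, match on the opposite strand starting 53 bases before the RefSeq start: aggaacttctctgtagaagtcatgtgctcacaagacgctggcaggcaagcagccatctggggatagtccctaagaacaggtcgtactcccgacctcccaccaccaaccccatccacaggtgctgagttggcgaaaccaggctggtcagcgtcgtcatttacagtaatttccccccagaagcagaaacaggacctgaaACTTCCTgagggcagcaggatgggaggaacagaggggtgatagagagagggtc
C1qc, minus strand, chr4:136892915-136893164, match on the opposite strand starting 195 bases before the RefSeq start: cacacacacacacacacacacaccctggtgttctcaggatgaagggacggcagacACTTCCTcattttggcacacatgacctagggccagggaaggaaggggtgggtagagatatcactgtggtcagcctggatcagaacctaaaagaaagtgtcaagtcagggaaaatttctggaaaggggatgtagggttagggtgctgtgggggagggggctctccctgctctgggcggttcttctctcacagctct
P2ry12, minus strand, chr3:59262986-59263235, match on the same strand starting 52 bases before the RefSeq start: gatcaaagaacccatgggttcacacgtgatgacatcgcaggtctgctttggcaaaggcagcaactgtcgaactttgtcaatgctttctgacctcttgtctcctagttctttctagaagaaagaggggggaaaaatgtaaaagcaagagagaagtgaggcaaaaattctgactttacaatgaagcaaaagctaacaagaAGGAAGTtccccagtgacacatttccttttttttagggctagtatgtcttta

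Depth was between 38774591 and 54695236 counts per library. Values below are CPM (counts scaled to a common library total) scaled by 1 set of TMM factors (trimmed mean of M values, a library scaling) over all 12 libraries. Chd8 itself was lower in the Chd8+/- libraries at both stages, with 232.5 ± 3.55 against 163.5 ± 3.31 CPM (SD, n = 3) at E12.5 and 149 ± 3.11 against 96.5 ± 1.93 CPM at P5. Genes of 12 cortical markers summed to between 1265 and 1661 CPM at E12.5 and between 1424 and 1532 CPM at P5. In each group, 1 library had high Xist and low Y-linked counts, and the other two had the reverse. The E12.5 Chd8+/- library 2 stood apart, with the lowest sum of cortical markers and 997.2 CPM summed over 10 meningeal fibroblast markers, against 509.7 to 707.2 CPM in the other 5 libraries of that stage. For Tmem119 and Trem2, whose genotype difference at E12.5 changed sign without it, values are given below with and without it. At P5 the Chd8+/- library 3 stood apart from its group, with a chi-square per degree of freedom of 45.4 and 39.98 between its counts and those of the other two, against 6.58 to 16.7 for every other pair of libraries of a group.

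Levels per length were compared first, because counts of genes of different length cannot be set side by side. They are CPM per kilobase of the summed length of all annotated exons of a gene, which is not the length of a single transcript. That length was 4946 bases for Trem2, 564 for Tyrobp, 1931 for C1qc, 1088 for C1qb and 1040 for C1qa. The orders and ratios between genes given below depend on it. At E12.5, C1qb was the highest of the members with 5.05 CPM per kb over 6 libraries, above C1qa (3.63) and Tyrobp (3.47), which lay within their spread of each other. C1qc (2.77) and Csf1r (2.75) followed and were not separated, and then Tmem119 (1.87), Cx3cr1 (1.66), P2ry12 (0.861), Aif1 (0.409) and Trem2 (0.196). Cx3cr1, P2ry12, Aif1 and Trem2 were separated from one another by more than 1 SD in both genotypes. The members spanned from the percentile 52.7 of all genes tested at E12.5 (C1qb) down to 8.06 (Trem2).

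At P5 the order of the first 5 members was the same, with C1qb at 17.2, C1qa at 14.9, Tyrobp at 12.8, C1qc at 11.2 and Csf1r at 9.43 CPM per kb. In Chd8+/+ each of these overlapped the next within 1 SD. In Chd8+/- only C1qb (16.45 ± 1.01) and C1qa (15.03 ± 0.536) did, followed by Tyrobp (12.93 ± 0.788), C1qc (10.86 ± 0.47) and Csf1r (8.93 ± 0.708). Cx3cr1 (5.74) and P2ry12 (4.74) came next and overlapped each other. P2ry12 was now above Tmem119 (2.24), which was followed by Aif1 (1.71) and Trem2 (1.04), and these steps exceeded 1 SD. C1qb had moved to the percentile 81.4 of all genes tested and P2ry12 from 25.6 to 52.7, whereas Tmem119 had moved from 35.6 to 39.

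**Figure D1:**
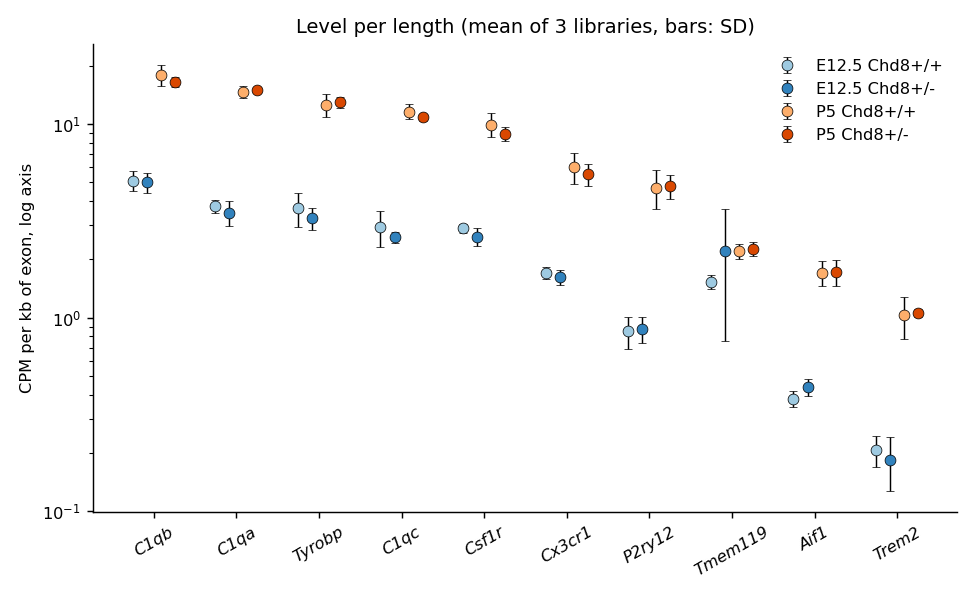
Level of each member in CPM per kb of exon on a log axis, as the mean of 3 libraries with bars of 1 SD, for the 4 groups. All members but Tmem119 sit higher at P5 (orange) than at E12.5 (blue) by more than the bars, and Tmem119 has the widest bar, in the E12.5 Chd8+/- group.

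The question of the stage comparison was how far the microglial genes changed between the embryonic and the early postnatal neocortex. Of the 10 members, 9 rose from E12.5 to P5 in Chd8+/+ and the same 9 rose in Chd8+/-, by 3.28 to 5.74 fold (edgeR's quasi-likelihood test, Benjamini-Hochberg adjustment, threshold 0.05). In all, 41.4% of the 19676 genes tested rose in Chd8+/+ and 41.3% in Chd8+/-, while 41.7% and 41.6% fell, so that a called change between the stages was common. The members' median log2 fold change was 1.89 in Chd8+/+ and 1.98 in Chd8+/-, against -0.0181 and -0.00462 over all genes. Stage cannot be told apart here from the table the counts came from or from the number of hemispheres taken.

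The 3 C1q genes encode the chains of complement C1q, which tags synapses and debris. In the E12.5 Chd8+/+ libraries C1qa was at 4.24, 3.82 and 3.68 CPM and in the Chd8+/- libraries at 4.22, 3.18 and 3.49 CPM. At P5 it was at 14.99, 16.47 and 14.3 CPM in Chd8+/+ and at 15.2, 15.5 and 16.3 CPM in Chd8+/-. Every P5 library lay above every E12.5 library, and C1qa rose by a log2 fold change of 1.96 ± 0.10 (SE, adjusted p = 9.2e-11) in Chd8+/+ and 2.11 ± 0.10 (adjusted p = 4.69e-11) in Chd8+/-, both by edgeR.

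C1qb was at 5.76, 6.07 and 4.81 CPM in the E12.5 Chd8+/+ libraries and at 5.14, 6.20 and 5.01 CPM in Chd8+/-. Its P5 libraries held 18.2, 22.3 and 17.9 CPM in Chd8+/+ and 16.82, 17.84 and 19.02 CPM in Chd8+/-. The stages did not overlap, and the log2 fold changes were 1.81 ± 0.11 and 1.72 ± 0.11.

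C1qc started from 5.88, 6.74 and 4.41 CPM in Chd8+/+ and 5.16, 4.65 and 5.23 CPM in Chd8+/-, and reached 21.7, 24.7 and 20.9 CPM and 19.9, 21.4 and 21.6 CPM. It rose by 1.98 ± 0.12 and 2.06 ± 0.12 on the log2 scale, so that the 3 chains of the same protein rose by between 3.28 and 4.32 fold. Per length, C1qc was at 0.572 ± 0.0543 of C1qb at E12.5 and 0.651 ± 0.0238 at P5 in Chd8+/+ (SD, n = 3).

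Csf1r is the receptor for the growth factors Csf1 and Il34. The gene lies on the plus strand of chromosome 18 (61105572 to 61132149, GRCm38). It was the member with the most counts, at 14.8, 14.4 and 13.2 CPM in the E12.5 Chd8+/+ libraries and 13.1, 13.9 and 11.3 CPM in Chd8+/-. At P5 it was at 49.8, 54.6 and 41.1 CPM in Chd8+/+ and 40.6, 42.8 and 47.4 CPM in Chd8+/-. The stages were far apart, with log2 fold changes of 1.78 ± 0.10 and 1.77 ± 0.11.

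Cx3cr1, the fractalkine receptor, was at 6.28, 6.00 and 6.90 CPM in the E12.5 Chd8+/+ libraries and at 6.44, 6.29 and 5.42 CPM in Chd8+/-. At P5 the libraries held 23.4, 25.9 and 17.9 CPM in Chd8+/+ and 17.7, 21.1 and 23.0 CPM in Chd8+/-, all above E12.5. It rose by 1.81 ± 0.13 and 1.77 ± 0.14 on the log2 scale, much like Csf1r.

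P2ry12, through which microglial processes are drawn to ADP, showed the steepest rise in Chd8+/+. It was at 1.77, 2.14 and 2.57 CPM in the E12.5 Chd8+/+ libraries and at 2.33, 1.83 and 2.50 CPM in Chd8+/-, with 82 to 123 counts behind each value. At P5 it was at 12.3, 14.5 and 9.09 CPM in Chd8+/+ and 10.71, 11.78 and 13.98 CPM in Chd8+/-. The log2 fold changes were 2.47 ± 0.18 (5.54 fold, adjusted p = 9.66e-09) and 2.45 ± 0.19 (5.47 fold, adjusted p = 1.14e-08), by edgeR. Per length, P2ry12 went from 0.495 ± 0.0709 to 0.781 ± 0.0376 of Cx3cr1 in Chd8+/+.

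Trem2 had few counts at E12.5, 27 to 64 per library. These gave 1.23, 0.989 and 0.857 CPM in Chd8+/+ and 1.15, 0.604 and 0.985 CPM in Chd8+/-. At P5 it was at 5.22, 6.27 and 3.75 CPM in Chd8+/+ and at 5.13, 5.02 and 5.51 CPM in Chd8+/-. All P5 libraries were above all E12.5 libraries, and Trem2 rose by 2.30 ± 0.22 and 2.52 ± 0.23 on the log2 scale, the latter being the steepest rise of any member in Chd8+/-.

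Tyrobp, the adaptor that Trem2 needs to signal, was at 1.66, 2.48 and 2.09 CPM in the E12.5 Chd8+/+ libraries and at 1.69, 2.13 and 1.70 CPM in Chd8+/-. It reached 7.30, 7.97 and 6.03 CPM at P5 in Chd8+/+ and 7.14, 6.95 and 7.80 CPM in Chd8+/-. The log2 fold changes were 1.78 ± 0.15 and 1.99 ± 0.16. Receptor and adaptor were present per length at a ratio of 0.0807 ± 0.00937 at P5 in Chd8+/+ and 0.0817 ± 0.000922 in Chd8+/-, Trem2 being the smaller. The exon lengths behind this ratio were 4946 bases for Trem2 and 564 for Tyrobp.

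Aif1 encodes Iba1, a calcium-binding protein used to stain microglia. Only 26 to 36 counts were found per E12.5 library, giving 0.521, 0.621 and 0.606 CPM in Chd8+/+ and 0.665, 0.604 and 0.739 CPM in Chd8+/-. At P5 it was at 2.53, 3.06 and 2.27 CPM in Chd8+/+ and 2.23, 3.03 and 2.63 CPM in Chd8+/-. The stages did not overlap, and Aif1 rose by 2.17 ± 0.18 and 1.97 ± 0.18 on the log2 scale.

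**Figure D2:**
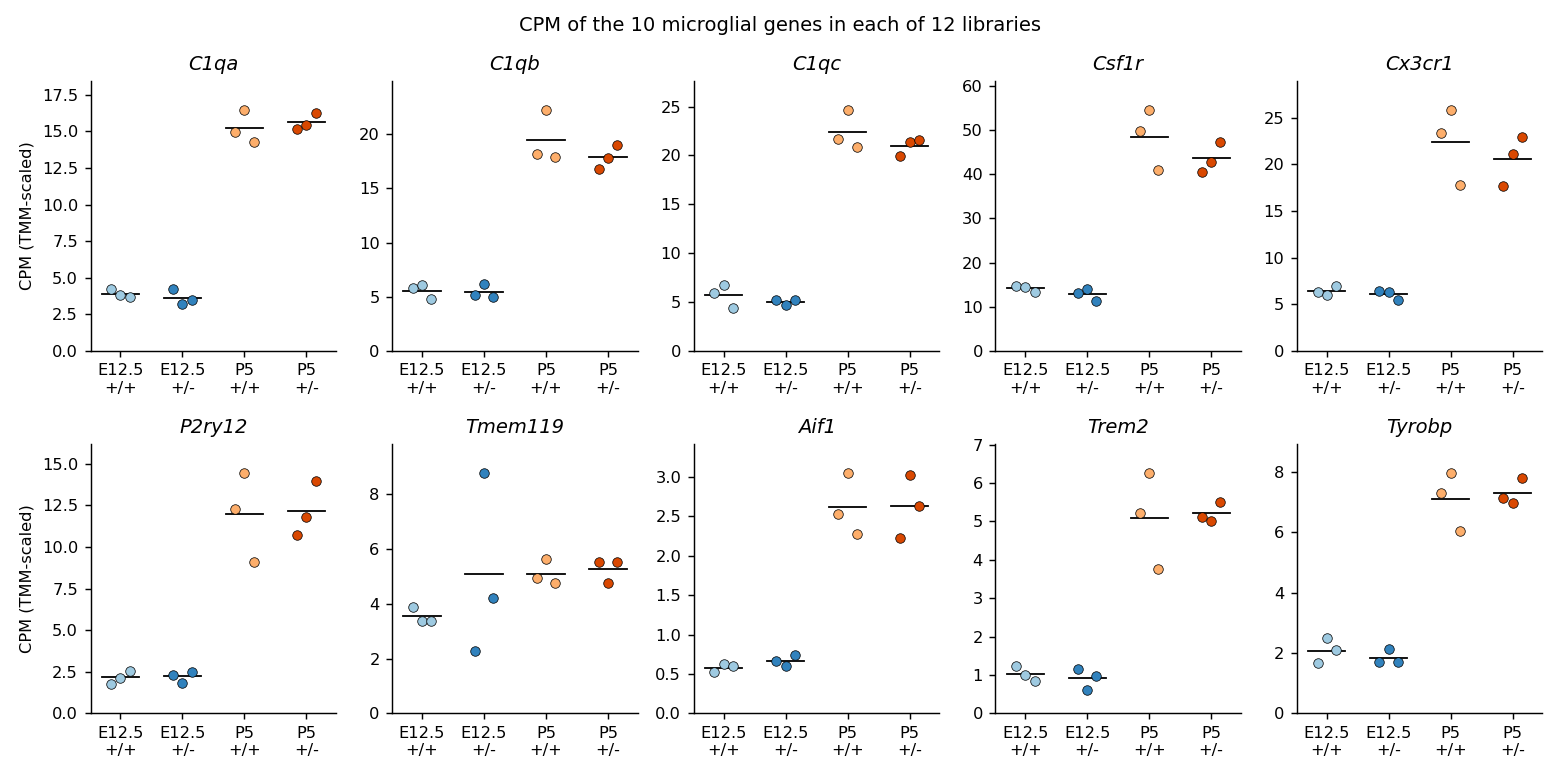
CPM of each member in each of the 12 libraries, with replicates 1 to 3 from left to right in each group and a line at the group mean. For 9 members the 6 P5 libraries lie above the 6 E12.5 libraries, and for Tmem119 the E12.5 Chd8+/- library 2 (8.79 CPM) is the highest of all 12.

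Tmem119, a membrane protein regarded as specific to microglia within the adult brain, did not follow the other members. It was at 3.88, 3.38 and 3.39 CPM in the E12.5 Chd8+/+ libraries and at 2.28, 8.79 and 4.23 CPM in Chd8+/-. At P5 the values were 4.94, 5.63 and 4.75 CPM in Chd8+/+ and 5.51, 4.77 and 5.51 CPM in Chd8+/-. The Chd8+/+ libraries of the stages did not overlap, as for 41.8% of genes in this direction, and the Chd8+/- libraries did (41.9% of genes did not overlap in this direction). Tmem119 was not called in either genotype, with log2 fold changes of 0.52 ± 0.32 (adjusted p = 0.14) and 0.04 ± 0.31 (adjusted p = 0.909) by edgeR.

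This result depended on which E12.5 Chd8+/- libraries were used. Without library 2, edgeR called Tmem119 higher at P5 in both genotypes, by 0.51 (adjusted p = 0.00922) in Chd8+/+ and 0.67 (adjusted p = 0.00402) in Chd8+/-, and all 10 members were then called. Without library 1 it was called in Chd8+/+ (0.51, adjusted p = 0.0261 by edgeR), while in Chd8+/- it was at -0.285 (adjusted p = 0.225), and without library 3 it was called in neither, with -0.0629 in Chd8+/- (adjusted p = 0.87). Fitted on the 6 Chd8+/+ libraries alone, where these libraries have no part in the estimate of spread, Tmem119 was also called, by 0.52 (adjusted p = 0.00121). In the fits without library 2, the rise was the smallest of the 10 members. Per length, Tmem119 was at 1.86 ± 0.489 of P2ry12 at E12.5 in Chd8+/+ and at 0.481 ± 0.0809 at P5.

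**Figure D3:**
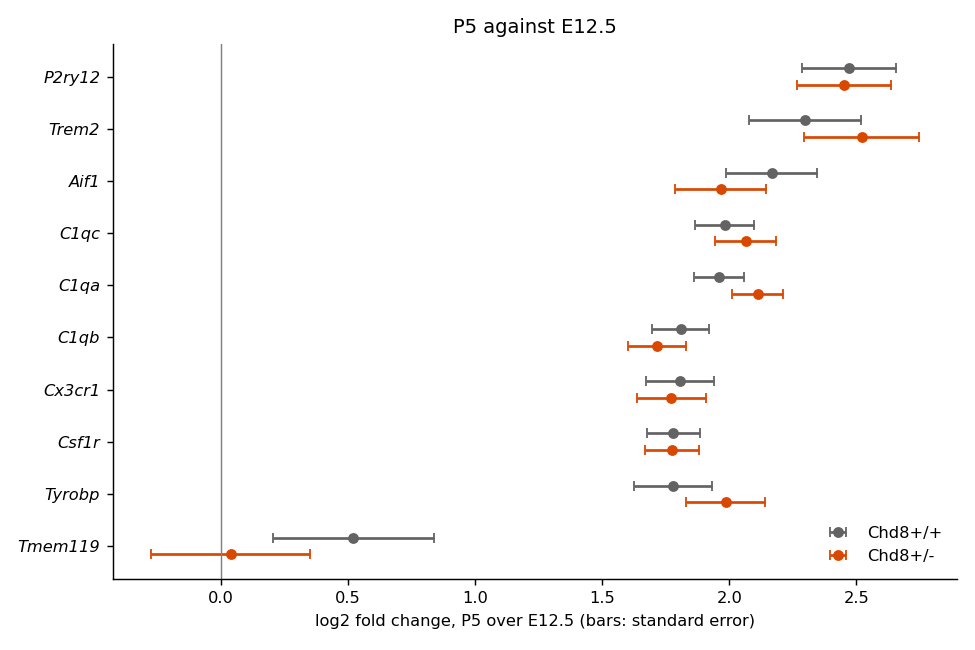
Log2 fold change of each member from E12.5 to P5, with bars of 1 standard error from edgeR, in Chd8+/+ (grey) and Chd8+/- (orange). The other 9 members lie between 1.72 and 2.52 in both genotypes, while Tmem119 lies at 0.52 and 0.04 with the widest bars.

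The same E12.5 library also held the most meningeal signal. Over the 10 meningeal fibroblast markers, none of which was at 0, the E12.5 Chd8+/+ libraries summed to 707.2, 568.6 and 648.9 CPM and the Chd8+/- libraries to 509.7, 997.2 and 636.9 CPM. Of the 10 markers, 6 were highest of the 6 libraries in Chd8+/- library 2, Col1a1 with 221.5 CPM against 76.0 to 127.2 CPM elsewhere, while 20.7% of all genes tested were highest there. Chd8+/- library 1, with the lowest meningeal sum, also had the lowest Tmem119. Only Tmem119 and C1qb among the members were highest in library 2, C1qb by a small margin (6.20 against 6.07 CPM). Other sums were highest at E12.5 in Chd8+/- library 2 as well. Erythrocyte markers summed to 4633 CPM there against 3237 to 4493 CPM elsewhere, and 6 of these 10 genes were highest there. Choroid plexus markers summed to 172.2 against 93.28 to 157.2 CPM, and border macrophage markers to 183.1 against 168.2 to 182.7 CPM. The part of meningeal or of these other cells in the Tmem119 value was not tested.

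Genes with the pattern of Tmem119 over the 6 E12.5 libraries were looked up after its values were seen. The closest by Pearson's r were Olfml3, Smoc2, Emilin3, Sgk1 and Mmp2 (r = 0.996 to 0.989, and 0.998 to 0.952 without library 2), followed by genes that include the collagens Col16a1, Col12a1 and Col8a1. Olfml3, a secreted protein also used as a microglial marker, was at 10.5 CPM in library 2 and at 4.55 to 6.57 CPM in the other 5. These coefficients are a description of 6 libraries, of which 1 sets most of the range. At P5 the meningeal sum ranged from 516.7 to 697 CPM and Tmem119 stayed within 4.75 to 5.63 CPM.

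**Figure D4:**
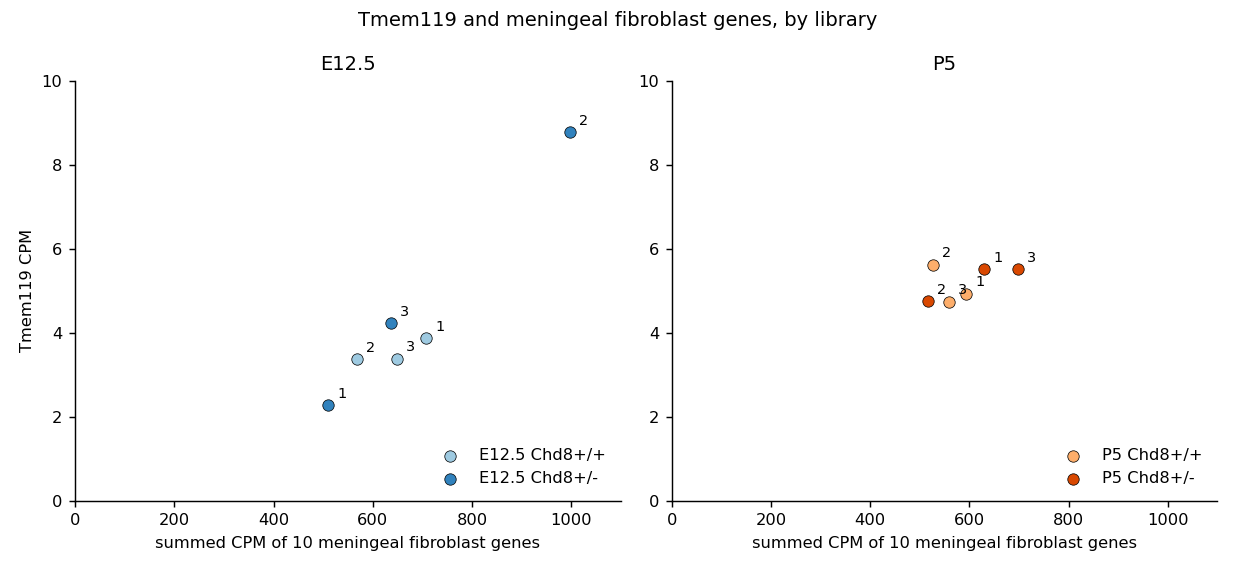
Tmem119 in CPM against the summed CPM of 10 meningeal fibroblast genes, for the 6 E12.5 libraries (left) and the 6 P5 libraries (right), with replicate numbers beside the points. The E12.5 Chd8+/- library 2 lies apart at 997.2 and 8.79 CPM.

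The genotype comparison asked whether loss of 1 Chd8 allele altered these genes. At E12.5 none of the 10 members was called by edgeR, none had an unadjusted p under 0.05 and none was called by DESeq2. Over all genes, edgeR called 0.00553% (Chd8 alone), 5.15% had an unadjusted p under 0.05 and DESeq2 called 0.0102%. No member's genotypes were free of overlap, against 11.4% of all genes. Of the 10 members, 7 had a log2 fold change below 0, against 49.8% of all genes, and the median was -0.10. With 1 library left out, this median was -0.0273 without Chd8+/+ library 2, -0.0613 without Chd8+/- library 3 and between -0.139 and -0.0721 without any other.

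Among the receptors at E12.5, Csf1r had a fitted change of -9.66% in Chd8+/- (log2 fold change -0.15 ± 0.09, 95% interval -0.35 to 0.06), the smallest p of the members (unadjusted p = 0.142, adjusted p = 0.944 by edgeR). Cx3cr1 was at -0.08 ± 0.11 and P2ry12 at 0.04 ± 0.19. The C1q genes were at -0.11 ± 0.14 (C1qa), -0.03 ± 0.13 (C1qb) and -0.18 ± 0.15 (C1qc), and the intervals of all 3 included 0. Trem2 (-0.18 ± 0.26), Tyrobp (-0.17 ± 0.19) and Aif1 (0.21 ± 0.21) had wider errors at their low counts. For Trem2 the 95% interval of -0.76 to 0.41 was the widest of the 10 apart from that of Tmem119, and its value was 0.0481 (adjusted p = 0.989 by edgeR) without Chd8+/- library 2.

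Tmem119 had the largest fitted difference at E12.5, a log2 fold change of 0.53 ± 0.38 with an interval of -0.33 to 1.38 (adjusted p = 0.96 by edgeR). It turned to -0.11 (adjusted p = 0.967) when Chd8+/- library 2 was left out. The means of 3.55 ± 0.284 and 5.10 ± 3.34 CPM (SD, n = 3) thus differed through 1 library.

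At P5 no member was called by edgeR, had an unadjusted p under 0.05 or was called by DESeq2, which gave no adjusted p for Aif1. Over all genes, edgeR called 0.00536% (Chd8 alone), 17.8% had an unadjusted p under 0.05, and DESeq2 called 5.22% of those for which it gave an adjusted p. No member was free of overlap between the genotypes, against 23.4% of all genes. Log2 fold changes were above 0 for 6 of the 10 members, against 50.4% of all genes, with a median of 0.03. The sign of this median rested on single libraries. It was -0.111 without Chd8+/+ library 3, where Csf1r (unadjusted p = 0.00577, adjusted p = 0.135 by edgeR) and Cx3cr1 (unadjusted p = 0.046, adjusted p = 0.266) had an unadjusted p under 0.05. It was 0.123 without Chd8+/+ library 2, and -0.0124 and -0.023 without Chd8+/- library 2 or 3, with no member under 0.05 in these 3 fits.

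The lowest value at P5 was that of Csf1r, at -0.14 ± 0.09 (95% interval -0.34 to 0.07, adjusted p = 0.464 by edgeR). C1qb was at -0.10 ± 0.09 (interval -0.30 to 0.09), C1qc at -0.08 ± 0.07 (-0.23 to 0.08) and Cx3cr1 at -0.10 ± 0.13 (-0.38 to 0.18). C1qa was the most narrowly bounded, at 0.05 ± 0.07 (-0.10 to 0.20). The remaining members lay between 0.02 (Aif1) and 0.06 (Tmem119), with P2ry12 at 0.04 ± 0.15, Trem2 at 0.06 ± 0.16 and Tyrobp at 0.06 ± 0.11.

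**Figure D5:**
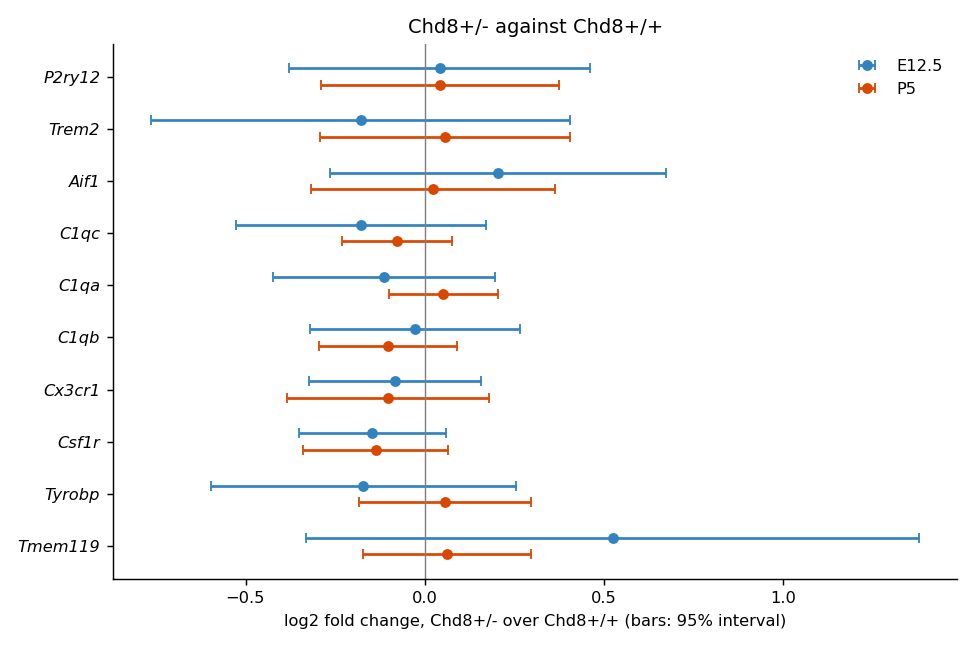
Log2 fold change of each member, Chd8+/- over Chd8+/+, with its 95% interval from edgeR, at E12.5 (blue) and P5 (orange). Every interval includes 0, and the widest is that of Tmem119 at E12.5 (-0.33 to 1.38).

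The C1q chains were also compared as ratios per length, in which a factor common to both genes cancels. At P5, C1qa was at 0.860, 0.774 and 0.837 of C1qb in Chd8+/+ and at 0.945, 0.906 and 0.895 in Chd8+/-. The genotypes did not overlap, nor did they for C1qa over C1qc, at 1.29, 1.24 and 1.27 against 1.41, 1.34 and 1.40. In a two-sided exact permutation test both gave p = 0.1, the smallest that 3 against 3 libraries allow, and 12 ratio comparisons were made, of which the other 10 overlapped. Both ratios have C1qa as the numerator, and 23.4% of single genes did not overlap at P5. At E12.5 the C1qa to C1qb ratio was at 0.77, 0.658 and 0.801 in Chd8+/+ and 0.859, 0.536 and 0.729 in Chd8+/-, so that the groups overlapped.

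An interaction term in the model of all 12 libraries asked whether genotype acted differently on the members at E12.5 and P5. None of the 10 members was called by edgeR or DESeq2, and none had an unadjusted p under 0.05. Of all genes, 0% were called by edgeR, 10% had an unadjusted p under 0.05 and DESeq2 called 0.0245%. Tmem119 had the lowest value, -0.48 ± 0.45 on the log2 scale (adjusted p = 0.731), which became 0.16 without the E12.5 Chd8+/- library 2. The other 9 members lay between -0.20 and 0.22.

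At P5 the libraries within a group differed for most members in the same order. In Chd8+/+, all 10 members were highest in library 2 and lowest in library 3, an order that 27% of all genes tested shared. Their sums over the members were 160.4, 181.2 and 137.9 CPM. In Chd8+/-, 8 of the 10 members were highest in library 3, Tmem119 was level in libraries 1 and 3 (5.511 and 5.513 CPM) and Aif1 was highest in library 2. Counting Tmem119, these were 9 of 10, against 31.6% of all genes, with sums of 141, 150.1 and 162.7 CPM. These orders were noticed after the values were seen. The spread was widest for Trem2 and P2ry12, with coefficients of variation of 24.9% and 22.6% in Chd8+/+, and narrowest for C1qa, with 7.26%.

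In other lists, the P5 Chd8+/+ order was found in 15 of 30 other microglial genes, in 8 of 13 ligands and partners, in 8 of 11 genes of proliferative-region microglia, in 10 of 20 genes of complement and phagocytosis and in 3 of 12 microglial transcription factors. None of 12 border macrophage markers had it, whereas 10 of these 12 were highest in library 3 of the Chd8+/- group, as were 7 of 10 meningeal fibroblast markers and 4 of 6 erythrocyte markers. In the lists of microglial function that library was highest for 13 of 30 other microglial genes, 3 of 11 genes of proliferative-region microglia, 8 of 20 genes of complement and phagocytosis, 5 of 12 transcription factors and 5 of 13 ligands and partners, against 31.6% of all genes. Mrc1, for example, was at 24.3, 21.4 and 24.2 CPM in Chd8+/+ and at 18.2, 19.7 and 24.9 CPM in Chd8+/-. Choroid plexus markers, summed, were also highest in library 2 of the Chd8+/+ group (452.6, 583.8 and 476.2 CPM), and 6 of those 10 genes had the members' order. In the Chd8+/- group their sums were 355.2, 388.9 and 328.8 CPM, and 0 of the 10 were highest in library 3. The part of choroid plexus in the members' order was not tested.

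At E12.5 the members' sums were 46.0, 46.6 and 42.5 CPM in Chd8+/+ and 42.2, 48.2 and 40.6 CPM in Chd8+/-, and without Tmem119 the latter were 39.9, 39.4 and 36.4 CPM. Within groups, the correlation of a member with the mean of the others was between 0.596 (Tmem119) and 0.98 (Csf1r) over the 6 P5 libraries and between -0.822 (P2ry12) and 0.82 (C1qb) over the 6 E12.5 libraries, given as a description of few libraries that differ in depth.

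Non-member genes with the pattern most like the mean of the members within groups, over all 12 libraries, were led by the lysosomal protease gene Ctsd (r = 0.94). Of the 15 closest of 19676 genes, only Ctsd and Itgam, a complement receptor subunit (r = 0.904), belonged to a list used here. The others were C330021F23Rik, Spa17, Gm43513, Jrkl, Gm2026, Hgsnat, Tmem184c, 4933431K14Rik, Fndc3c1, 5430403G16Rik, Lxn, Pyroxd1 and Hdlbp (r = 0.901 to 0.937). Over the 6 P5 libraries alone, the 15 closest genes were Dld and Fgfr2 (r = 0.999), then Wdr7, Tusc3, Sod2, AI849053, Ptprn2, Rcn2, Ipp, Asic4, Ap1g1, Coq5, Cyba, Irs1 and Lgmn (r = 0.995 to 0.994). Of these 15 only Lgmn belonged to a list used here, and none was shared with the 15 over all libraries. These likenesses are a description of few libraries.

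Among 14 genes for ligands and signalling partners of the members, 13 were tested. With stage, 10 rose and 1 fell in Chd8+/+ (median log2 fold change 1.39), and 11 rose in Chd8+/- (1.41). The fractalkine gene Cx3cl1, made by neurons, rose from 13.1 ± 1.43 to 257 ± 7.4 CPM in Chd8+/+ (SD, n = 3), a log2 fold change of 4.29 beside 1.81 for its receptor Cx3cr1. The Csf1r ligand Il34, likewise neuronal, rose from 0.238 ± 0.0505 to 12.7 ± 0.0564 CPM (log2 fold change 5.72), whereas the other ligand, Csf1, rose only from 9.70 ± 0.719 to 15.9 ± 0.208 CPM (0.71).

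Genes for Trem2 ligands also rose, Apoe from 30.4 ± 2.93 to 580.1 ± 50.9 CPM and Clu from 11.1 ± 0.79 to 185.8 ± 18.5 CPM in Chd8+/+. The partner Siglech, which signals through Tyrobp in microglia, rose from 0.542 ± 0.0704 to 4.51 ± 0.772 CPM (log2 fold change 3.06). Tgfb1 was the gene that fell in Chd8+/+, from 7.29 ± 0.334 to 5.68 ± 0.262 CPM (log2 fold change -0.36, adjusted p = 0.00166 by edgeR), and in Chd8+/- it was not called (-0.12, adjusted p = 0.213).

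Between the genotypes, no ligand or partner was called by edgeR or DESeq2 at either stage, and 3 of 13 at E12.5 (5.15% of all genes) and 2 of 13 at P5 (17.8% of all genes) had an unadjusted p under 0.05, all lower in Chd8+/-. Log2 fold changes of the 6 with the highest levels were small, with Sirpa at 0.03 and 0.05, Gab2 at 0.07 and -0.08, Apoe at -0.18 and 0.10, Cx3cl1 at 0.02 and 0.02, Clu at 0.09 and 0.02, and Csf1 at 0.02 and -0.09 at E12.5 and P5. Tgfb1 was noticed after the values were seen, with 7.11, 7.68 and 7.09 CPM in the E12.5 Chd8+/+ libraries against 5.47, 6.29 and 5.83 CPM in Chd8+/- (unadjusted p = 0.00921, adjusted p = 0.942 by edgeR). So was Siglech, with 0.463, 0.598 and 0.564 CPM against 0.435, 0.157 and 0.267 CPM (unadjusted p = 0.0225, adjusted p = 0.942 by edgeR).

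Of 20 further genes of complement and phagocytosis, 15 rose and 2 fell with stage in Chd8+/+, and 16 rose and 2 fell in Chd8+/-. Itgam rose by 2.36 on the log2 scale in Chd8+/+ and 2.42 in Chd8+/-, within the members' range. Gas6, a bridging ligand for the uptake of dying cells, rose from 11.5 ± 0.332 to 92.5 ± 0.81 CPM in Chd8+/+, while its receptor Axl fell from 63.2 ± 1.29 to 34.9 ± 0.503 CPM. The complement gene C4b was listed at 0 counts in all but 1 of the 6 E12.5 libraries and was at 10.7 ± 1.45 CPM in the P5 Chd8+/+ libraries.

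Of these 20 genes none was called between the genotypes by edgeR or DESeq2, with 15 tested at E12.5. Of those 15, 13 lay below 0 (49.8% of all genes did), with a median of -0.114, and 0 had an unadjusted p under 0.05. Of the 20 at P5, 12 lay below 0, with a median of -0.0375. At P5, 3 of 20 had an unadjusted p under 0.05, against 17.8% of all genes, all lower in Chd8+/-, the dendritic cell and activation marker Itgax (1.40, 2.41 and 1.17 against 0.551 to 1.15 CPM), C4b (9.87, 12.4 and 9.82 against 6.73, 9.63 and 8.83 CPM) and Mertk. These were named after their values were seen, and their libraries do not overlap between the genotypes, as for 23.4% of all genes.

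Among 30 other genes used as microglial markers, 25 rose and 2 fell with stage in Chd8+/+, and 23 rose and 3 fell in Chd8+/-. Over all genes, 41.4% and 41.3% rose and 41.7% and 41.6% fell. The median log2 fold change of the 30 was 1.40 in Chd8+/+, with a range from -2.80 to 3.90. Fcrls, Gpr34 and P2ry13 are examples that rose, by 1.85, 2.22 and 2.75 on the log2 scale in Chd8+/+, and were named after their values were seen. Tgfbr1 and Golm1, the highest of the 30 at E12.5, fell from 230.8 ± 8.77 to 58.85 ± 2.76 CPM and from 193.6 ± 3.15 to 27.7 ± 0.443 CPM in Chd8+/+. The sum of the 30 fell from 550.2 ± 6.67 to 390.6 ± 31.0 CPM in Chd8+/+ and from 548.9 ± 36.8 to 360 ± 15.4 CPM in Chd8+/-.

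No gene of these 30 was called by edgeR between the genotypes. Of the 27 tested at E12.5, 19 lay below 0 (49.8% of all genes did), with a median of -0.096. There 1 of the 27 had an unadjusted p under 0.05, lower in Chd8+/-, against 5.15% of all genes, and DESeq2 called 0. At P5, 20 of the 30 lay below 0, with a median of -0.09 (50.4% of all genes lay above 0), and 5 of 30 had an unadjusted p under 0.05, all lower in Chd8+/-, against 17.8% of all genes. DESeq2 called 2 of the 30 lower, against 5.22% of all genes, among them Slco2b1 (17.9, 19.7 and 19.3 against 13.4, 16.6 and 15.3 CPM, adjusted p = 0.0186). It was named after its values were seen. Of the 30, 5 did not overlap between the genotypes, all lower in Chd8+/-, against 23.4% of all genes. Slco2b1, a transporter also present in endothelium, was among them.

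Of 12 transcription factors of microglia, 8 rose and 2 fell with stage in each genotype. Spi1, which encodes PU.1, rose from 1.22 ± 0.135 to 2.72 ± 0.378 CPM in Chd8+/+ (log2 fold change 1.14, and 1.54 in Chd8+/-) and Irf8 from 1.94 ± 0.426 to 3.52 ± 0.222 CPM (0.85, and 0.76 in Chd8+/-). Sall1, which in the embryonic cortex is also a gene of neural progenitors, fell from 178.1 ± 26 to 27.8 ± 0.727 CPM in Chd8+/+. Between the genotypes none was called by edgeR or DESeq2, and at P5 3 of the 12 had an unadjusted p under 0.05, against 17.8% of all genes, Mef2c higher and Cebpa and Smad3 lower in Chd8+/-, named after their values were seen. Mef2c overlapped between the genotypes (1063, 1119 and 1175 against 1257, 1122 and 1256 CPM). It was at 1119 ± 56 CPM in P5 Chd8+/+ beside 2.72 CPM for Spi1, and the cells behind this level were not tested.

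Genes of the amoeboid microglia of proliferative regions all rose with stage in both genotypes (11 of 11 tested), Spp1 most, from 0.861 ± 0.154 to 16.3 ± 3.34 CPM in Chd8+/+ (log2 fold change 4.24, and 4.18 in Chd8+/-). None of the 11 was called between the genotypes by edgeR or DESeq2. At each stage 9 of the 11 lay below 0, with medians of -0.0867 at E12.5 and -0.0846 at P5. An unadjusted p under 0.05 was found for 1 of them at E12.5 (Lpl, lower in Chd8+/-, named after its values were seen), against 5.15% of all genes, and for 0 at P5, against 17.8%. The 3 with the highest levels had P5 log2 fold changes of -0.06 (Ctsb), 0.09 (Fabp5) and -0.06 (Ctsd). Igf1 was another gene with a high value in the E12.5 Chd8+/- library 2 (20.6 CPM against 7.26 to 10.9 in the other 5). It was the only 1 of the 11 that was highest in that library, against 20.7% of all genes.

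Border-associated macrophages express several of the members. Of their markers, 8 of 12 rose with stage and 1 fell in each genotype. The gene that fell was Pf4, from 4.86 ± 0.411 to 2.32 ± 0.293 CPM in Chd8+/+. The median log2 fold change of the 12 was 0.836 in Chd8+/+ and 0.663 in Chd8+/-. Mrc1 rose by 0.86 and 0.74 on the log2 scale. Cd163 and Cbr2, with at most 4 counts in any E12.5 library, and Cd209f, with 0 counts in all 6, reached 1.97 to 5.23, 0.916 to 1.70 and 0.354 to 0.643 CPM in the P5 libraries. Per length at E12.5 in Chd8+/+, Mrc1 stood at 2.01 and Pf4 at 6.74 CPM per kb beside 0.849 for P2ry12, and at P5 at 3.65 and 3.22 beside 4.70. Between the genotypes none of these markers was called by edgeR or DESeq2. Of 8 tested at E12.5, 4 lay below 0 and 1 had an unadjusted p under 0.05, lower in Chd8+/-, against 5.15% of all genes. Of 12 at P5, 9 lay below 0, with a median of -0.115, and 0 had an unadjusted p under 0.05, against 17.8% of all genes. The part of these macrophages in the members' values was not tested.

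Other cells of the blood and the tissue were present to differing degrees. Lymphocyte markers summed to 0.966 to 3.66 CPM in any library, with Cd3e at 0 in all 6 E12.5 libraries, and Ccr2, the receptor of circulating monocytes, was at 0.226 CPM or less. The 13 monocyte and neutrophil genes summed to 10.5 CPM in P5 Chd8+/- library 3 and to 1.05 to 3.24 CPM in the other 11 libraries. That library also had the highest members' sum of its group (162.7 CPM), within the range of the P5 Chd8+/+ libraries. Choroid plexus markers had lower sums at P5 in Chd8+/- (355.2, 388.9 and 328.8 against 452.6, 583.8 and 476.2 CPM). Endothelial markers had lower sums at both stages (255.9 to 270.8 against 290.9 to 303.5 CPM at E12.5 and 250.4 to 279.1 against 283.6 to 314 CPM at P5). In each case the sums did not overlap, while the members' sums overlapped. Of the single choroid plexus, endothelial and cortical markers, edgeR called 0 at either stage and DESeq2 called 0 at E12.5. At P5 DESeq2 called 4 of 10 choroid plexus markers (Ttr, Clic6, Kl and Aqp1), 3 of 12 endothelial markers (Cdh5, Kdr and Vwf) and 2 of 12 cortical markers (Neurod6 and Bcl11b), all lower in Chd8+/-, against 5.22% of all genes. Erythrocyte markers fell from 3237 to 4633 CPM per library at E12.5 to 107 to 131.3 CPM at P5 in their sum, with 9 of 10 called lower and 1, Hbb-bs, called higher in each genotype.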

How the data were processed

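RNA from microdissected neocortex was made into stranded, mRNA-selected libraries and sequenced in 2 runs each. Per the submitters' processing notes, reads were checked with FastQC 0.11.2, trimmed with Trim Galore 0.4.1 and aligned with TopHat2 2.1.0. The authors deposited whole-number counts per Ensembl gene from featureCounts 1.5.0, in a table for each stage. The P5 header shows no strand setting, and none is recorded for E12.5. Here the 2 runs of a library were summed, since they differed by little more than sampling noise (chi-square per degree of freedom 1.18 to 1.51, against 6.58 to 45.4 between libraries of a group).

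Counts were tested with edgeR 4.0.16 in R 4.3.3 (TMM factors, filterByExpr, quasi-likelihood test, Benjamini-Hochberg adjustment over all genes tested, threshold 0.05). Genotype was fitted within each stage on 6 libraries (18081 genes at E12.5 and 18666 at P5). Stage and interaction were fitted on all 12 (19676 genes), which share 1 estimate of spread. Standard errors were taken from the test statistic. DESeq2 1.42.0 and limma 3.58.1 were alternatives, and the fits were tested on simulated data. All 10 members and Chd8 are named. Of other lists, genes called by edgeR or those with the highest CPM are named, and any other gene was chosen after its values were seen. The members and lists were chosen with earlier results of these data known. The result of 1 gene is not reported here.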

Additional observations from a re-analysis of the deposited data

How the results depend on the processing

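Under the alternatives run (DESeq2, limma-voom, robust edgeR, other scaling factors, other filters, length offsets, a replicate block, a term for high Xist chosen after seeing the data, 1 model of all libraries and each library left out), no member was called between the genotypes, and 9 or 10 were called between the stages. Aif1 has no value at E12.5 under a filter of 1 CPM. An unadjusted p under 0.05 was found at E12.5 for Tmem119 without filter (0.0404) and without Chd8+/- library 1 (0.00819), for C1qc without Chd8+/+ library 3 (0.0305) and for Csf1r without Chd8+/- library 2 (0.0364), at P5 also for Csf1r without filter (0.0297), and for the interaction of C1qa (0.0401) and Tmem119 (0.0152) without E12.5 Chd8+/- library 1. Adjusted p-values of these were 0.282 to 0.944 by edgeR. With length offsets, the members' median for genotype at P5 was -0.00776, Aif1 at P5 turned to -0.0171 and Tmem119 between stages in Chd8+/- to -0.026. Without filter, Tmem119 was called higher at P5 in Chd8+/+ (0.52, adjusted p = 0.0366 by edgeR), as it was without the E12.5 Chd8+/- library 1 (0.51, adjusted p = 0.0261).

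With each library left out in turn, log2 fold changes that crossed 0 ranged for genotype at E12.5 from -0.0897 to 0.185 (P2ry12), -0.126 to 0.0468 (C1qb), -0.106 to 0.869 (Tmem119), -0.365 to 0.0481 (Trem2), and for genotype at P5 from -0.0874 to 0.143 (Aif1), -0.233 to 0.0122 (Cx3cr1), -0.152 to 0.00263 (C1qb), -0.113 to 0.197 (P2ry12), -0.11 to 0.231 (Trem2), -0.0408 to 0.145 (Tyrobp), and for stage in Chd8+/- from -0.285 to 0.673 (Tmem119), and for the interaction from -0.797 to 0.162 (Tmem119). The other members kept their direction in these comparisons, apart from the interaction, where Tmem119 alone was followed.

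The count of all genes called for genotype was 1 at each stage in the fits reported. At E12.5 it was 3 with DESeq2, 13 without filter, 0 with the Xist term, 2 in the model of all 12 libraries and 0 to 2 with 1 library left out. At P5 it was 651 with DESeq2, 22 with robust edgeR, 995 without filter, 4 in the model of all 12 libraries and 1 to 327 with 1 library left out, the highest without Chd8+/- library 2. For the interaction it was 0, and 8 with DESeq2, 17 without filter and 0 to 2 with 1 library left out. Of the 15 genes most like the members, 2 were in a list over all libraries and 1 over the P5 libraries. The causes were not tested.

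Replicate numbers were not taken as pairs in the fits reported. Same-numbered libraries of the genotypes correlated at -0.156, -0.0635 and -0.0494 at E12.5. At P5 they correlated at 0.187, 0.0783 and 0.0384, where every Chd8+/+ library correlated best with its own number. Library 1 also had high Xist in both genotypes at P5 (1025 and 835 CPM), so a pairing at that stage is not excluded. With the replicate block, 0 genes were called at E12.5 and 4 at P5, and no call of a member changed. The 26 to 36 counts of Aif1 and 27 to 64 of Trem2 at E12.5 limit what could be seen for these genes.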
